A study of Mus musculus with 16 samples.

Results

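Loxl4 and the other genes of the lysyl oxidase family were followed through bulk RNA-seq of mouse livers in which hepatocytes had or lacked HIRA, taken before and after regeneration. The family has 5 members in the mouse, Lox, Loxl1, Loxl2, Loxl3 and Loxl4, and they were found by gene name as 5 of the 55421 gene IDs of the count table. All 5 passed the filter on low values, a summed count of 10 or more across the 16 libraries, which left 23018 genes. Loxl4 was chosen by its measured counts, which were lower in HIRA KO than in control after regeneration, so its values after regeneration are given as a description with no test. The other 4 members were taken because they belong to the family.

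HIRA is a histone chaperone that places the variant H3.3 into chromatin independently of DNA replication. All mice were male C57BL/6 mice injected with an AAV8 vector at 6 months of age, and the Tbg promoter of the vector limits its product to hepatocytes, so the other cells of the liver keep HIRA. HIRA KO was made with AAV8 Tbg-Cre in HIRA fl/fl mice or with AAV8 Tbg-saCas9 and sgRNA-HIRA in wildtype mice, and the controls were wildtype mice given AAV8 Tbg-Cre or wildtype mice given the same saCas9 vector with sgRNA-Rosa26. Part of the liver was resected 4 weeks after injection and served as the tissue before regeneration, and the liver that had regrown was collected 5 days later as the tissue after it. The 4 groups held 4 libraries each, 2 for each way of deletion per the labels. The columns of the count table name the group and a number from 1 to 4 but neither the mouse nor the way of deletion, so each column was used as a replicate of its group. The lobe sampled, the way of collection and the time changed together between before and after, and these cannot be told apart.

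Lysyl oxidases are secreted, copper-dependent amine oxidases. They turn lysine and hydroxylysine side chains of collagen and elastin into aldehydes, which then react with neighbouring chains to form the covalent crosslinks that make the extracellular matrix stiff and insoluble. Lox and Loxl1 are made with propeptides that are removed outside the cell, by BMP1-type proteinases in the case of Lox, whereas Loxl2, Loxl3 and Loxl4 carry scavenger receptor cysteine-rich domains. In liver the family is best known for crosslinking the collagen of fibrotic scars.

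Loxl4 (ENSMUSG00000025185.14) lies on the minus strand of chromosome 19 at 42593982 to 42612813 of GRCm38, with 5 annotated transcripts. Loxl1 (ENSMUSG00000032334.10) lies on chromosome 9 at 58287738 to 58313186, Loxl2 (ENSMUSG00000034205.16) on chromosome 14 at 69609068 to 69695834 and Loxl3 (ENSMUSG00000000693.10) on chromosome 6 at 83034173 to 83052562. Reads were counted over genes as a whole, so transcripts of a gene were not separated. No run of 50 bases in the transcripts of Lox, Loxl1 or Loxl4 occurred in a transcript of any other gene, and no such run was shared among the 5 members. Of the 50-base runs of Loxl2, 45.0% also occurred in other genes, most of them in Gm21451, an unprocessed pseudogene on chromosome 14 at 69390854 to 69480287. Gm21451 held 31 counts over the 16 libraries against 1489 for Loxl2, so how reads common to both were assigned leaves the level of Loxl2 uncertain. Loxl3 shares 535 exonic bases with Htra2 on the opposite strand, and since the strand setting of the counting is not stated, part of its 828 counts cannot be told apart from the 2711 counts of Htra2.

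The promoter of Loxl4 is shown because Loxl4 is the member that was chosen by its level. It was taken from RefSeq on GRCm38.p6, at chr19:42612757-42613056 on the minus strand, and holds the 250 bases before and 50 bases from the start site. Capitals mark GGGCGG, the GC box that Sp1-type factors recognise.
Loxl4: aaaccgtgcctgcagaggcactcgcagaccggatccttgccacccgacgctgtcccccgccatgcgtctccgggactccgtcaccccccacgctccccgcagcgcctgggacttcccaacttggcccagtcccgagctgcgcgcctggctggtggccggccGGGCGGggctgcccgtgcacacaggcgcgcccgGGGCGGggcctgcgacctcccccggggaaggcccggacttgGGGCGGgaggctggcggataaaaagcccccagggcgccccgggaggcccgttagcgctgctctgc
GGGCGG occurred 3 times, starting at -89, -56 and -15 relative to the start site. Among 32851 promoters of the same length, 35.7% held it at least once on either strand, and it was looked for after the sequence had been read. The letters ACGTG, the core of the hypoxia response element, were in none of the Loxl4 window and in 19.6% of all promoters. CACGTG, the E-box, and TGACTCA, the AP-1 site, were also not in this window and occurred in 7.15% and 5.2% of promoters. The Loxl4 window had 75% G and C against a median of 52.7%. Of the 5 members, only Loxl4 had its promoter examined, so nothing is said here about the promoters of the others.

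The libraries held between 15103059 and 21738619 counts (median 18337571), and the 5 members were low in all of them, with between 3 and 310 counts for a member in a library. Levels are given as CPM, counts scaled to a common library size, with sizes adjusted by the TMM method, as mean ± SD over 4 libraries, and differences as log2 fold changes ± SE from edgeR. Hira was below the control range in every HIRA KO library at both times. It was at 5.77 ± 0.448 CPM in control against 3.54 ± 0.571 CPM in HIRA KO before regeneration, and at 5.67 ± 0.554 against 3.51 ± 0.707 CPM later. Hepatocyte markers such as Alb and Apoa1 made up 111900 to 168000 CPM in the libraries, and none of the 10 was at 0 in any library. In a principal component analysis, the HIRA KO libraries numbered 1 and 2 stood apart at both times, at -47.4 to -36.2 on the second component against -1.14 to 31.2 for the other 12 libraries, and results are also given without these 4, in a fit of the other 12. Since the columns do not name the way of deletion, it is not known whether these 4 are the libraries of 1 way of deletion, and the values without them may then come from the other way alone.

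Loxl4, a family member with scavenger receptor domains, had lower values in HIRA KO than in control at both times. Before regeneration, the 4 control libraries had 2.24, 1.56, 3.26 and 2.13 CPM and the 4 HIRA KO libraries 0.582, 1.40, 1.29 and 1.00 CPM. Every HIRA KO library lay below every control library, at a mean of 1.07 ± 0.366 CPM against 2.30 ± 0.709 CPM. After regeneration, the control libraries had 12.5, 13.9, 14.8 and 14.9 CPM and the HIRA KO libraries 1.13, 0.888, 5.41 and 3.28 CPM. The 4 control libraries lay close together and above all 12 others, whereas the HIRA KO libraries spread over a wide range below them.

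**Figure D1:**
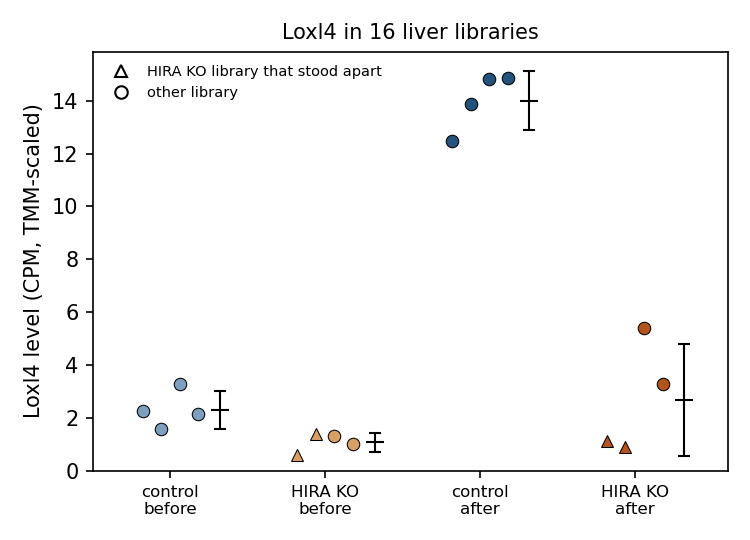
Loxl4 level in CPM in each of the 16 libraries by group. Points are libraries, triangles the HIRA KO libraries that stood apart, and the bars mean ± SD over 4 libraries. The control libraries after regeneration sit between 12.5 and 14.9 CPM, above all others.

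By group mean, Loxl4 was lowest in HIRA KO before regeneration, followed by control before, HIRA KO after and control after regeneration. Control before and HIRA KO after overlapped, and the other neighbours in this order did not. The test of Loxl4 whose fold change did not use the values after regeneration was HIRA KO against control before regeneration. It was not independent of the choice of Loxl4. Per the study's methods, the mice whose resected tissue served as before regeneration also gave the regrown tissue. The edgeR spread was also estimated over all 16 libraries. Before regeneration the log2 fold change was -1.11 ± 0.48, which gave an unadjusted p of 0.0352 and an adjusted p of 0.345 by edgeR, so Loxl4 was not called. The groups did not overlap, which held for 8.07% of all genes and, with HIRA KO below control, for 4.53%. The exact two-sided permutation test of the 4 against 4 libraries gave p = 0.0286, the smallest it can give.

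After regeneration, Loxl4 in HIRA KO had 19.1% of the control mean, with a log2 difference of -2.39 ± 0.43. This is the contrast on which it was chosen, in which 0.491% of all genes were called and 8.10% did not overlap, and nothing is read from its place among them. Between before and after, the control mean went from 2.30 to 14.0 ± 1.13 CPM (6.09-fold, log2 2.61 ± 0.44), with no overlap, as for 19.0% of all genes. This uses the control libraries after regeneration, on which Loxl4 was chosen, and is a description. In HIRA KO the mean went from 1.07 to 2.68 ± 2.11 CPM (2.51-fold, log2 1.33 ± 0.48), and these groups overlapped. The 2 increases differed by -1.28 ± 0.65 on the log2 scale, also a description because both use the libraries after regeneration. In HIRA KO, the libraries numbered 1 and 2 had 1.13 and 0.888 CPM after regeneration, within the 0.582 to 1.40 CPM before it, and those numbered 3 and 4 had 5.41 and 3.28 CPM, above that range.

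Without the HIRA KO libraries that stood apart, the mean of the remaining 2 was 31.0% of control after regeneration and 49.9% before it. Both remaining libraries after regeneration were still below every control library, and the log2 difference from control was -1.66 after and -0.999 before regeneration. The size of the difference after regeneration therefore rested in part on the libraries numbered 1 and 2. Every HIRA KO library lay below every control library at both times, so leaving libraries out could not change the direction of the difference. After regeneration this direction is also the one on which Loxl4 was chosen.

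The 2 nearest tested genes on each side of Loxl4 in the annotation were R3hcc1l and Golga7b towards lower coordinates and Pyroxd2 and Hps1 towards higher ones. R3hcc1l, whose annotation lies 1639 bases beyond the 3′ end of Loxl4, had log2 differences between HIRA KO and control of 0.09 ± 0.11 before and 0.01 ± 0.11 after regeneration. For Hps1 these were 0.0045 ± 0.14 and 0.07 ± 0.13. Pyroxd2, 113045 bases away, had 0.65 ± 0.15 before regeneration (adjusted p = 0.111, edgeR) and 0.02 ± 0.15 after it. Before regeneration its range was 29.1 to 36.6 CPM in control and 46.3 to 57.3 CPM in HIRA KO, and the groups did not overlap, as for 8.07% of all genes. Golga7b was barely detected at either time, with 0.0518 CPM in control and 0.0472 CPM in HIRA KO before regeneration and 0.221 against 0.0459 CPM after it (log2 -2.07 ± 0.89, adjusted p = 0.263). None of these 4 neighbours was called in any of the comparisons of HIRA KO with control or of after with before.

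Lox, the enzyme that gave the family its name and crosslinks collagen and elastin, was the lowest member by mean FPKM in all groups but HIRA KO before regeneration, where Lox had 0.218 ± 0.195 and Loxl4 0.216 ± 0.0395 FPKM. The gene (ENSMUSG00000024529.14) lies on chromosome 18 at 52516067 to 52529867. It had 0.249, 0.269, 0.344 and 0.533 CPM in the control libraries and 2.49, 1.67, 0.204 and 0.501 CPM in the HIRA KO libraries before regeneration. The 2 high HIRA KO libraries were those that stood apart, and the other 2 lay in or below the control range. After regeneration Lox had 0.940, 0.516, 0.709 and 3.36 CPM in control and 1.72, 1.02, 0.759 and 2.5 CPM in HIRA KO, and the groups overlapped. These values rest on 3 to 70 reads a library.

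Loxl1, which is needed to lay down and renew elastic fibres, had 1.69, 1.94, 2.52 and 1.07 CPM in control before regeneration. In HIRA KO before regeneration it had 10.6, 6.54, 2.24 and 2.82 CPM, again with the 2 high values in the libraries that stood apart. After regeneration its range was 1.47 to 3.90 CPM in control and 2.75 to 6.12 CPM in HIRA KO.

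Loxl2, which crosslinks type IV collagen of basement membranes, had 2.14, 2.74, 3.09 and 2.72 CPM in control and 6.35, 5.14, 2.86 and 3.76 CPM in HIRA KO before regeneration. After regeneration it had 5.95, 7.91, 3.05 and 7.68 CPM in control and 7.89, 6.44, 6.45 and 5.12 CPM in HIRA KO. All but 1 of the 8 libraries after regeneration lay above every control library before it, and the exception, control numbered 3, lay just inside their range. Loxl3, which is required for palate and spine development, varied least, from 1.54 to 2.58 CPM in control against 1.70 to 3.73 CPM in HIRA KO before regeneration, and from 1.96 to 3.44 against 3.13 to 4.03 CPM later.

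**Figure D2:**
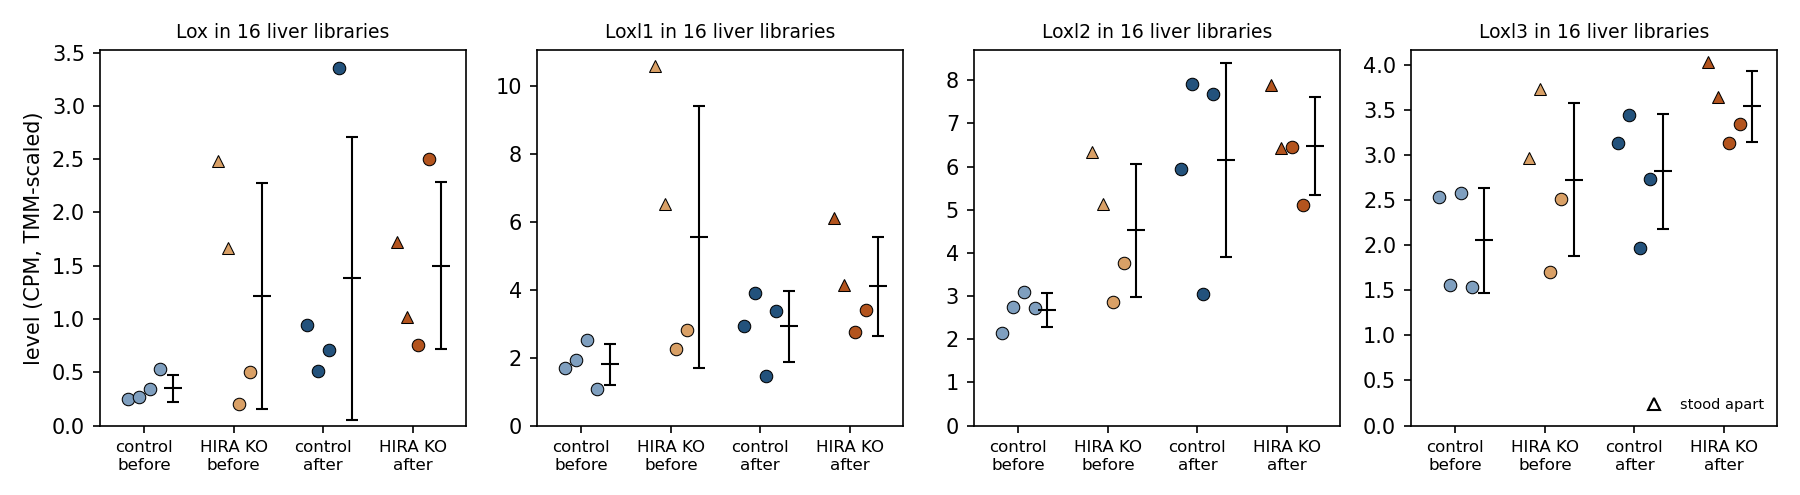
Levels of Lox, Loxl1, Loxl2 and Loxl3 in CPM in each library by group, with a separate scale for each gene. Points are libraries, triangles the HIRA KO libraries that stood apart, and the bars mean ± SD over 4 libraries. The high values of HIRA KO before regeneration, up to 10.6 CPM for Loxl1, are the triangles.

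Before regeneration, the family was therefore split in direction: Loxl4 was lower in HIRA KO and the other 4 members were higher by group mean. None of the 5 was called by edgeR, against 0.0391% of all genes (9 genes), although 4 of the 5 had an unadjusted p under 0.05, against 13.2% of all genes, and DESeq2 called 1, Loxl1, at an adjusted p of 0.0242, against 1.63% of all genes. Loxl1 had a log2 fold change of 1.62 ± 0.45 (adjusted p = 0.178, edgeR), Lox 1.81 ± 0.75 (adjusted p = 0.322), Loxl2 0.76 ± 0.28 (adjusted p = 0.276) and Loxl3 0.41 ± 0.26 (adjusted p = 0.527). Without the libraries that stood apart, the HIRA KO mean was 101% of control for Lox, 140% for Loxl1, 124% for Loxl2 and 102% for Loxl3, with adjusted p values of 0.864 to 0.999. For Loxl4 it was 49.9%, so it was the member whose difference changed least when these libraries were left out.

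After regeneration, none of the 4 members other than Loxl4 was called between HIRA KO and control by edgeR, none had an unadjusted p under 0.05 and none was called by DESeq2. Of all genes, 15.8% had such a p and DESeq2 called 3.95%. Their log2 fold changes were 0.09 ± 0.65 for Lox, 0.49 ± 0.44 for Loxl1, 0.07 ± 0.27 for Loxl2 and 0.33 ± 0.25 for Loxl3, with adjusted p values from 0.568 to 0.962. These were 0.20, 0.09, -0.07 and 0.22 without the libraries that stood apart, with adjusted p values from 0.851 to 0.966.

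With regeneration in control, Loxl2 rose 2.3-fold (log2 1.20 ± 0.28, adjusted p = 0.0106 by edgeR) and was the member of these 4 that was called, where 10.2% of all genes were called. Its groups overlapped by the control library numbered 3, and 19.0% of all genes did not overlap. The call held without the HIRA KO libraries that stood apart (adjusted p = 0.00445, where 17.9% of all genes were called), without any 1 of the 8 control libraries, with adjusted p values of 0.00319 to 0.0455, and when the counts of Gm21451 were added to those of Loxl2 (adjusted p = 0.0136), an alternative chosen after seeing the data. It was lost on log2(FPKM + 1) with limma (adjusted p = 0.0631) and with only the columns numbered 3 and 4 (adjusted p = 0.16). Lox had a log2 fold change of 2.00 ± 0.74 (adjusted p = 0.102, edgeR; 0.0334 by DESeq2, which called 14.3% of all genes), Loxl1 of 0.69 ± 0.46 and Loxl3 of 0.45 ± 0.26, the last 2 with adjusted p values of 0.403 and 0.318.

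With regeneration in HIRA KO, none of the 4 was called by edgeR or DESeq2 and none had an unadjusted p under 0.05, where 12.0% of all genes were called by edgeR, 15.9% by DESeq2, 27.4% had such a p and 16.1% did not overlap. Loxl2 had 0.51 ± 0.27 (adjusted p = 0.238), Loxl3 0.37 ± 0.25, Lox 0.28 ± 0.66 and Loxl1 -0.44 ± 0.43 on the log2 scale. In the fit of 12 libraries these were 0.82, 0.63, 2.16 and 0.29, with adjusted p values from 0.162 to 0.714 where 10.3% of all genes were called, so the fitted change of Loxl1 turned from lower to higher. Whether the effect of HIRA KO differed between the 2 times was tested as an interaction. edgeR called 0% of all genes in it, with 1568 genes at an unadjusted p under 0.05 and 67 called by DESeq2. None of the 4 members had an unadjusted p under 0.05 or was called by DESeq2, and their adjusted p values were 0.764 to 0.990. The rise of Loxl2 in control was thus not shown to differ from its change in HIRA KO.

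**Figure D3:**
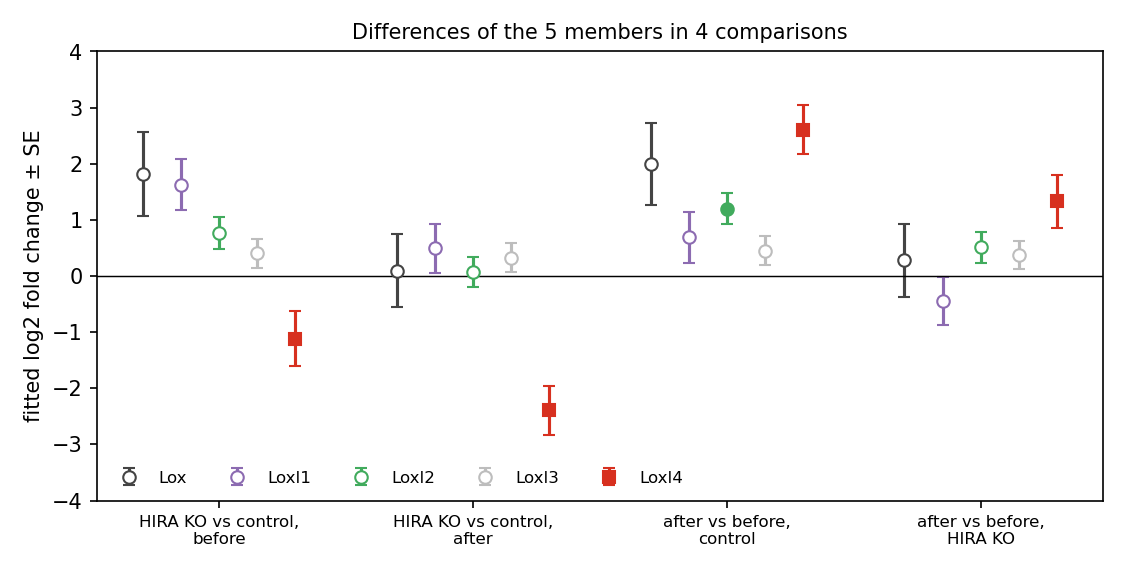
Fitted log2 fold change ± SE of the 5 members in 4 comparisons (y axis), from edgeR on 4 libraries a group. Filled circles passed an adjusted p under 0.05, open circles did not, and the squares of Loxl4 carry no call. Loxl4 lies at -1.11 and -2.39 between HIRA KO and control and the other 4 members lie above 0.

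Per transcript length, which allows levels of different genes to be compared, the family was low in resting liver. In deposited FPKM, control livers before regeneration had 0.581 ± 0.0608 for Loxl2, 0.573 ± 0.248 for Loxl3, 0.480 ± 0.149 for Loxl1, 0.441 ± 0.0789 for Loxl4 and 0.0643 ± 0.0308 for Lox. The first 4 overlapped and Lox lay below all of them. In control after regeneration the order changed, and Loxl4 led with 3.13 ± 0.509 FPKM, before Loxl2 with 1.28 ± 0.459, Loxl1 with 0.801 ± 0.303, Loxl3 with 0.603 ± 0.136 and Lox with 0.253 ± 0.255 FPKM. In HIRA KO after regeneration Loxl2 led with 1.45 ± 0.341 FPKM and Loxl4, with 0.609 ± 0.460 FPKM, was the fourth of the 5, and its range overlapped that of every other member.

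Loxl4 made up 20.7% ± 2.03 of the summed FPKM of the family in control livers and 7.46% ± 4.08 in those of HIRA KO before regeneration. After regeneration these shares were 52.5% ± 10.4 and 14.0% ± 10.7. Neither pair of groups overlapped. The shares after regeneration rest on the values by which Loxl4 was chosen, so their separation is a description with no test. The sum itself was 2.14 ± 0.410 FPKM in control against 3.49 ± 1.63 FPKM in HIRA KO before regeneration, and 6.06 ± 1.16 against 4.45 ± 0.583 FPKM after it. With counts divided by exon length in place of FPKM, the shares of Loxl4 were 25.7%, 8.90%, 54.2% and 15.4% in the same order of groups.

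**Figure D4:**
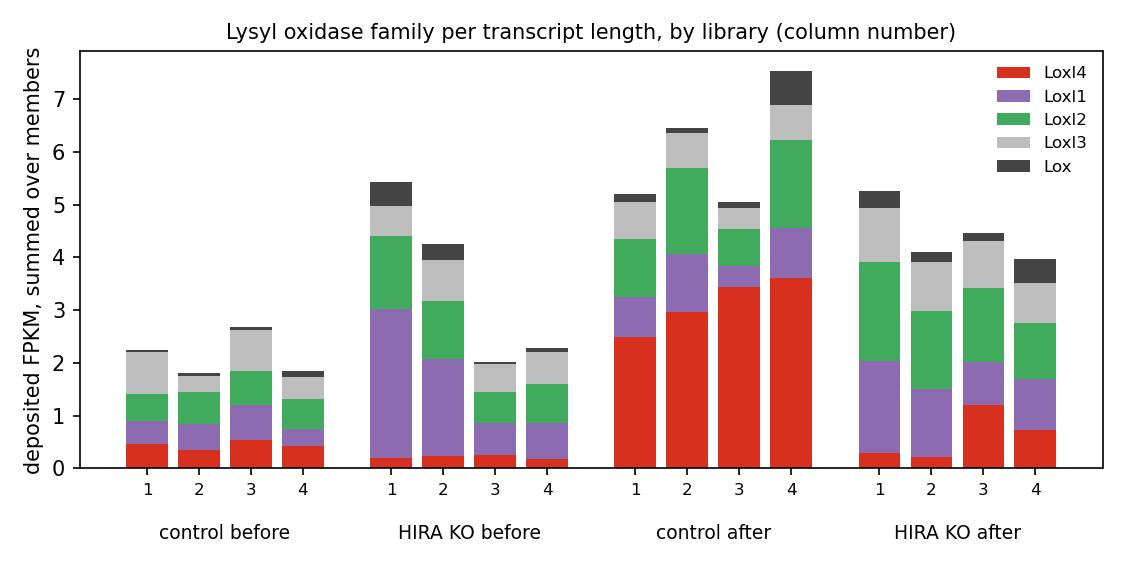
Deposited FPKM of the 5 members stacked for each library (y axis, summed FPKM), by group and column number. Loxl4 (red) makes up 46.0% to 68.0% of the bar in control after regeneration and 5.15% to 27.0% in HIRA KO after it.

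The substrates of the family were read from a list of 11 genes, the collagens Col1a1, Col1a2, Col3a1, Col4a1, Col4a2, Col5a1, Col5a2, Col6a1, Col6a2 and Col6a3 and elastin. Before regeneration all 11 were higher in HIRA KO by fitted value, with a median log2 fold change of 1.02 against 0.0094 over all genes tested, and none was called. Those with the smallest p were Col5a2 (1.65 ± 0.54), Col3a1 (1.57 ± 0.53), Col1a2 (1.44 ± 0.55) and Col6a2 (1.01 ± 0.39), with adjusted p values of 0.252 to 0.309 by edgeR. Their summed level was 130 to 168 CPM in control, 542 and 371 CPM in the HIRA KO libraries that stood apart and 142 and 149 CPM in the other 2. Without the libraries that stood apart, 6 of the 11 were higher by fitted value, with a median of 0.06. The libraries in which Lox, Loxl1 and Loxl2 were high were those with the high substrate sum, and Loxl4 was not high in them.

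After regeneration the substrate sum ran from 156 to 426 CPM in control and from 274 to 461 CPM in HIRA KO, with a median log2 fold change of 0.28 and none called. The control library numbered 3, with the lowest substrate sum of its group, 156 CPM, was also the lowest for Loxl1, Loxl2 and Loxl3, and had 14.8 CPM of Loxl4. With regeneration in control, Col4a1, a basement membrane collagen, rose (log2 0.96 ± 0.26, adjusted p = 0.0308), all 11 were higher by fitted value with a median of 0.77, and in HIRA KO none was called with a median of 0.31. In the fit of 12 libraries, 4 of the 11 rose in control, Col3a1, Col5a2, Col1a2 and Col4a1, and 2 rose in HIRA KO, Col3a1 and Col5a2, where 17.9% and 10.3% of all genes were called in either direction. In the fit of all libraries these shares were 10.2% and 12.0%.

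**Figure D5:**
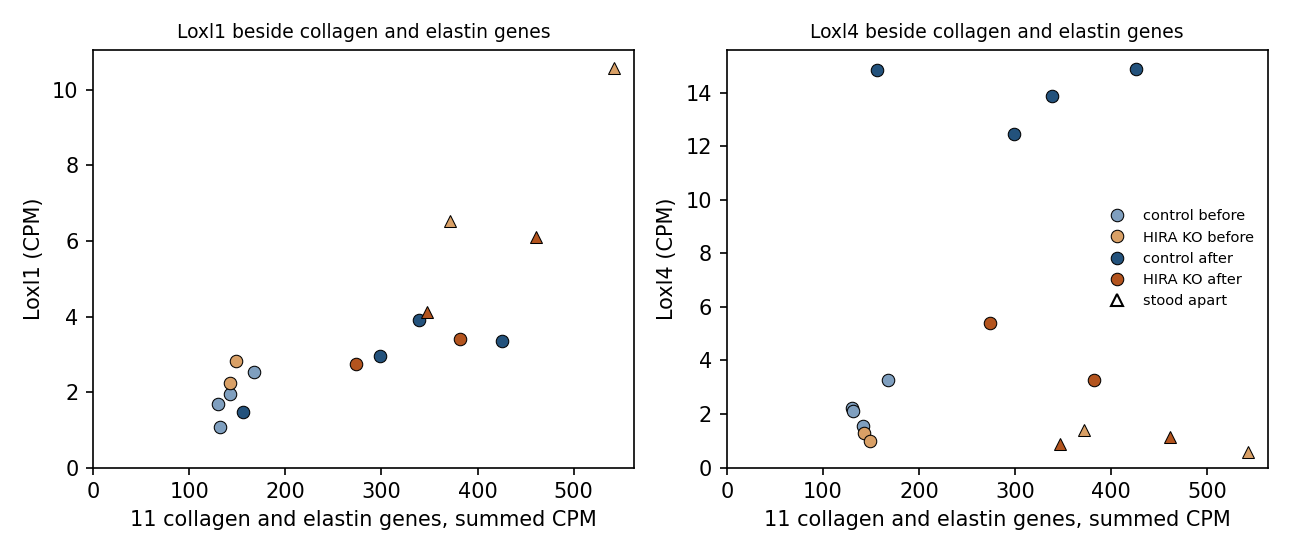
Loxl1 (left) and Loxl4 (right) in CPM against the summed CPM of 11 collagen and elastin genes, for 16 libraries coloured by group, with triangles for the HIRA KO libraries that stood apart. Loxl1 is highest, at 10.6 CPM, where the sum is highest, at 542 CPM, and Loxl4 there is at 0.582 CPM.

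Markers of other liver cells moved with these libraries. All 9 portal fibroblast and myofibroblast markers were higher in HIRA KO before regeneration by fitted value, with a median log2 fold change of 1.89 and none called. Their sum was 17.4 to 20.6 CPM in control, 40.8 to 226 CPM in the libraries that stood apart and 14.8 to 16.8 CPM in the other 2, where at most 1 marker was at 0 in a library. All 10 stellate cell markers were higher as well, with a median of 0.50, a sum of 199 to 253 CPM in control, 359 to 361 CPM in the libraries that stood apart and 232 to 244 CPM in the other 2, and none at 0. Cholangiocyte markers summed to 78.2 to 107 CPM in control, 128 to 180 CPM in the libraries that stood apart and 82.7 to 99.7 CPM in the other 2. Without the libraries that stood apart, 2 of the 9 portal fibroblast markers and 6 of the 10 stellate cell markers were higher by fitted value, with medians of -0.59 and 0.03. In the fit of all libraries, no marker of hepatocytes, endothelial cells, neutrophils or T, NK and B cells was called between HIRA KO and control at either time, and the medians of these lists lay between -0.08 and 0.67 before and -0.02 and 0.31 after regeneration. In bulk tissue, fewer cells of a type and less RNA per cell cannot be told apart, and the part of these cells in the levels of the family was not tested.

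After regeneration, the sums overlapped between control and HIRA KO for portal fibroblast markers (10.0 to 30.2 against 20.9 to 28.3 CPM) and stellate cell markers (131 to 243 against 171 to 309 CPM). In the libraries that stood apart, the stellate sum was 268.5 to 309.4 CPM, above the control range, and the portal fibroblast sum 20.9 to 28.3 CPM. In the other HIRA KO libraries these were 171.2 to 211.7 and 21.1 to 21.8 CPM. The part of these cells in the level of Loxl4 was not tested. The Kupffer cell list was higher after regeneration in both genotypes. All 10 macrophage markers rose with regeneration in control, with a median log2 fold change of 1.13, and all 10 in HIRA KO, with a median of 1.55. Of all genes, 10.2% were called in control and 12.0% in HIRA KO. The sum of the markers was 183 to 493 CPM in control against 286 to 303 CPM in HIRA KO before regeneration, and 818 to 1032 against 843 to 1211 CPM later, with none at 0. In the HIRA KO libraries that stood apart the sum was 286 to 303 CPM before and 843 to 943 CPM after regeneration. Loxl4 in them was at 0.991 and 1.01 CPM on average. In the other HIRA KO libraries the sum was 288 to 300 CPM before and 1066 to 1211 CPM after regeneration. Loxl4 in those was at 1.15 and 4.35 CPM on average. Without the libraries that stood apart, 9 of the 10 markers rose in each genotype, where 17.9% of all genes were called in control and 10.3% in HIRA KO. The part of macrophages in the change of Loxl4 was not tested.

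Proteins that work with the family in the matrix were read from a list of 16 genes of elastic fibres and collagen partners. Before regeneration 15 of them were higher in HIRA KO by fitted value, with a median of 0.76 and none called (10 of 16 and 0.04 without the libraries that stood apart), led by Mfap4 (1.57 ± 0.45, adjusted p = 0.178), a microfibril protein, and Fbln1 (1.75 ± 0.51, adjusted p = 0.191), a fibulin. After regeneration none was called, and fibronectin (Fn1) had the smallest p, with -0.72 ± 0.19 (adjusted p = 0.0852). With regeneration in control 3 rose, Emilin1 (0.69 ± 0.17, adjusted p = 0.0145), Efemp2 (0.94 ± 0.26, adjusted p = 0.0278), the fibulin that brings Lox to elastin, and Lum (1.13 ± 0.33, adjusted p = 0.0394), and Ltbp4, a TGF-beta binding protein of elastic fibres, fell by 1.24 ± 0.33 (adjusted p = 0.0277). In HIRA KO Emilin1 rose (0.62 ± 0.17, adjusted p = 0.0232), and Ltbp4 (-1.38 ± 0.33, adjusted p = 0.0152) and Fbln5 (-0.95 ± 0.28, adjusted p = 0.0381) fell. Of all genes, 10.2% were called with regeneration in control and 12.0% in HIRA KO. Without the libraries that stood apart, the same 4 rose in control and in HIRA KO (Emilin1, Fbln2, Lum and Efemp2) and Ltbp4 fell in both. In that fit 17.9% of all genes were called in control and 10.3% in HIRA KO.

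Of 7 tested genes for procollagen and pro-LOX processing, none was called between HIRA KO and control. Pcolce2, an enhancer of procollagen C-proteinase, rose with regeneration in control (1.04 ± 0.27, adjusted p = 0.0177) and in HIRA KO (1.38 ± 0.28, adjusted p = 0.00388), while Bmp1, the proteinase itself, had -0.31 ± 0.15 and -0.33 ± 0.15. Among 14 genes for lysyl and prolyl hydroxylation and folding of collagen, none was called between HIRA KO and control. The lysyl hydroxylases among them make the hydroxylysine that lysyl oxidases act on. Crtap, a subunit of the prolyl 3-hydroxylase complex, rose with regeneration in control (0.99 ± 0.26, adjusted p = 0.0225) and HIRA KO (0.82 ± 0.26, adjusted p = 0.046).

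Copper, the metal of the active site, is supplied through importers, chaperones and pumps. None of 8 genes of copper supply was called between HIRA KO and control. The metallothionein Mt2 rose in control (4.39 ± 1.05, adjusted p = 0.0187), and in HIRA KO the importer Slc31a1 (-0.41 ± 0.11, adjusted p = 0.0181) and the exporter Atp7b (-0.39 ± 0.11, adjusted p = 0.0333) fell. In the fit of 12 libraries, Atp7b was the only 1 still called in HIRA KO. In control, Mt2 rose and Slc31a1 (-0.32, adjusted p = 0.0264, edgeR) and Ccs (-0.40, adjusted p = 0.0125) fell in that fit, where 17.9% of all genes were called. The 3 other copper amine oxidases, Aoc1, Aoc2 and Aoc3, were called in no comparison in the fit of all libraries. In the fit of 12 libraries, Aoc2 fell with regeneration in control (-1.26, adjusted p = 0.00476, edgeR).

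Lysyl oxidases are known targets of hypoxia and TGF-beta signalling. Of 21 genes of the HIF pathway, 1 was called between HIRA KO and control: Ndrg1, a hypoxia-induced gene, fell after regeneration by 2.00 ± 0.32 (adjusted p = 0.0276), whereas the median of the list was 0.11. Ndrg1 was not called without the libraries that stood apart (-1.70, adjusted p = 0.176). With regeneration in control 4 rose and 4 fell, among them Slc2a1, the glucose transporter, up by 0.78 ± 0.15, Hk2, a hexokinase, up by 1.34 ± 0.28, Egln1, a HIF prolyl hydroxylase, down at -0.67 ± 0.12 and Vegfa down at -0.74 ± 0.17, with adjusted p values of 0.00269 to 0.0111. In HIRA KO 1 rose, Hk2 (1.12 ± 0.27, adjusted p = 0.0133), and 4 fell, against 0 and 5 without the libraries that stood apart. Of all genes, 0.491% were called between HIRA KO and control after regeneration. With regeneration, 10.2% of all genes were called in control and 12.0% in HIRA KO, and 17.9% and 10.3% in the fit of 12 libraries. Of 15 TGF-beta genes none was called between HIRA KO and control. Ccn2, a matricellular target of TGF-beta, fell with regeneration in control (-2.87 ± 0.44, adjusted p = 0.00148) and in HIRA KO (-2.53 ± 0.42, adjusted p = 0.00218), and so did the inhibitor Smad7 (-0.61 ± 0.17 and -0.56 ± 0.17). Ccn2 and Tgfb1 were called in both genotypes in the fit of 12 libraries, Tgfb1 as a rise, and Smad7 in control.

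Of 8 matrix metalloproteinases and their inhibitors, which take apart the matrix that lysyl oxidases crosslink, none was called between HIRA KO and control. With regeneration in control, the inhibitors Reck (-1.29 ± 0.25, adjusted p = 0.00309) and Timp3 (-1.09 ± 0.24, adjusted p = 0.00838) fell and the gelatinase Mmp2 rose (1.29 ± 0.38, adjusted p = 0.043). In HIRA KO, Timp3 (-1.16 ± 0.24, adjusted p = 0.00539) and Reck (-1.10 ± 0.25, adjusted p = 0.00828) fell, and both were called, with Mmp2 as a rise, without the libraries that stood apart.

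The genes most like Loxl4 were ranked by Pearson's r of log2(CPM + 1) over the 16 libraries among 13176 genes with a mean of at least 1 CPM. As the libraries share 4 groups, of which control after regeneration is far above the rest for Loxl4, a high r mostly marks genes that are high in that group. The 5 highest were Lcp1 (0.95), an actin-bundling protein of leukocytes, Nek6 (0.94), a mitotic kinase, Ugdh (0.94), which makes the UDP-glucuronate used for glycosaminoglycans, Gm12498 (0.94) and Lasp1 (0.93), an actin-binding protein. Ugdh had 217 ± 25.9 CPM in control before and 545 ± 88.4 CPM in control after regeneration. After subtraction of each group's mean, which leaves the spread among replicates, the 5 highest were Pdgfc (0.90), a growth factor for fibroblasts, Zfp982 (0.89), Gpsm2 (0.89), a spindle orientation protein, Ccl9 (0.88), a chemokine, and again Ugdh (0.88). None of these genes was called between HIRA KO and control at either time, with adjusted p values of at least 0.0615. The spread of Loxl4 was widest in HIRA KO after regeneration, at 1.13 and 0.888 CPM in the libraries that stood apart and 5.41 and 3.28 CPM in the others. In that group Ccl9 ranged from 21.8 to 180 CPM and Pdgfc from 2.89 to 9.53 CPM. A high r after the subtraction can thus mark genes that differ between these libraries.

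The same ranking was run for Loxl2 and Loxl1 after values had been seen. It too takes in the groups and the libraries that stood apart, in which both genes were high before regeneration, and a high r can mark these. For Loxl2 the 5 most alike were Col4a1 (0.98), Ccdc80, Sparc, Col4a2 and Fstl1, and for Loxl1 they were Col6a3 (0.93), Col6a2, Dpysl3, Gramd1b and Col6a1. The collagens among them, Col4a1 and Col4a2 for Loxl2 and Col6a1, Col6a2 and Col6a3 for Loxl1, were on the collagen and elastin list, and none of the 9 genes named for Loxl4 was.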

How the data were processed

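Poly-A RNA of 16 mouse liver samples was sequenced from directional libraries. Per the study's methods, the authors trimmed reads where needed, aligned them to mm10 with STAR and counted them with HOMER. The submitters' processing notes name STAR, HTSeq and Cufflinks, and the annotation release and strand setting are not given in the sources used here. The deposited count table holds whole-number counts for 55421 gene IDs. The deposited FPKM were used as given, with empty cells, 48.6% to 54.7% of a library, read as 0. Coordinates were taken from GENCODE M21.

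Genes with at least 10 counts in total were tested with edgeR (4.0.16, R 4.3.3): TMM factors (0.915 to 1.10), 1 model of 4 group means over 16 libraries, the robust quasi-likelihood test and Benjamini-Hochberg adjustment over all 23018 genes, with calls at an adjusted p under 0.05. Each SE is approximate, derived from the fold change and its F statistic. Levels are CPM on TMM-scaled library sizes. DESeq2 (1.42.0) and limma (3.58.1) on log2(FPKM + 1) and log2(FPKM + 0.1), for genes with a mean FPKM of at least 0.1, were alternatives, with other normalizations, filters and subsets of libraries. The fit was checked on simulated counts. The chi-square per degree of freedom between replicates of a group, 12.4 to 134 over 24 pairs, showed no library deposited more than once within a group. Libraries of different groups were not compared in this way. The p-values measure the spread between libraries, which no label ties to separate mice.

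The members, the 9 pathway and 8 cell marker lists and the tests were chosen with earlier results of these data known. Named genes were the 5 members, from each pathway list at most 4 genes with the smallest p in the comparison, the 5 genes most like Loxl4 by each of 2 measures, and the 2 tested genes nearest to it on each side. Counts over the lists without the libraries that stood apart were added after seeing the data.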

Additional observations from a re-analysis of the deposited data

Results flagged for a closer look

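Lox in the control library numbered 4 after regeneration, at 3.36 CPM, lay far from the other 3 control libraries of that group, at 0.516 to 0.940 CPM. The gap took up 0.851 of the range of the group, above Dixon's critical value for 4 samples. The 5 members in 4 groups gave 20 such groups, and chance alone flags about 1 in 20. The same library had the highest collagen and elastin sum of its group, 426 CPM.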

How the results depend on the processing

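No paired analysis was possible because the columns of the tables carry neither the mouse nor the replicate numbers of the labels. For the same reason, the fit with the deletion approach as a covariate was not run. Before regeneration, the count of members called was 0, and became 1 with DESeq2 (Loxl1) and 3 with only the columns numbered 1 and 2 (Lox, Loxl1 and Loxl2). DESeq2 called 375 of all 23018 genes there, and the columns numbered 1 and 2 called 1607 of 20857. With regeneration in control the count of members was 1, and became 2 with DESeq2 (Lox and Loxl2) and 0 on log2(FPKM + 1) or with only the columns numbered 3 and 4. Among all genes, 2350 of 23018 were called in the main fit and 3282 of 23018 with DESeq2. On log2(FPKM + 1) these were 1889 of 20757, and with the columns numbered 3 and 4 they were 3211 of 20199. The log2 difference of Loxl4 between HIRA KO and control after regeneration, -2.39, was -1.39 on log2(FPKM + 1), -1.66 without the HIRA KO libraries that stood apart, -3.67 with the columns numbered 1 and 2 and -1.75 with those numbered 3 and 4. Its change with regeneration was 1.51 in control and 0.36 in HIRA KO on log2(FPKM + 1), and 0.0857 in HIRA KO with the columns numbered 1 and 2. The difference between its HIRA KO effects at the 2 times, -1.28, was -0.66 without the libraries that stood apart, -2.67 with the columns numbered 1 and 2, -0.52 with those numbered 3 and 4 and -1.88 to -0.97 without 1 library, the far end without HIRA KO numbered 3 after regeneration. Its share of the family in control before regeneration, 20.7% by FPKM, was 25.7% by counts over exon length. Loxl4 kept its sign in every comparison under all alternatives. This is no support for the difference between HIRA KO and control after regeneration, since Loxl4 was chosen by that sign. Over all genes, the 9 calls before regeneration became 375 with DESeq2 and 1607 with the columns numbered 1 and 2, and the 113 after it 910 and 2271, and 0 with only the groups compared. The causes were not tested. Counts of 3 to 310 reads a library limit the precision of every member.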
